A study of Mus musculus with 12 samples.

Results

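Immediate early genes were examined in the dorsal root ganglia (DRG) of Nf2 and DKO mice. The 10 genes, Fos, Fosb, Junb, Egr1, Egr3, Nr4a1, Npas4, Ier2, Dusp1 and Arc, were taken by symbol from a table of 49315 genes, where each had 1 entry. The labels give 6 Nf2 mice (Nf2 flox/flox with Postn-Cre) and 6 DKO mice, which carry the same alleles plus Fak1 flox/flox, Fak being the gene annotated as Ptk2. All mice were 10 months of age, 3 in each genotype were labelled male and 3 female, and about 8 ganglia per mouse gave 1 RNA sequencing library. Both genotypes therefore share the Nf2 deletion and the Cre transgene, which the study describes as acting in Schwann cells and their precursors. Sensory neurons are not named among those cells, and mice with intact Nf2 were not part of these libraries. The question addressed by the comparison is what the additional loss of Fak changes in ganglia that lack Nf2 in these cells.

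Immediate early genes are transcribed within minutes of a stimulus, without a need for new protein, because the factors that switch them on, such as CREB and serum response factor, are already in the cell. Most encode transcription factors that go on to drive a later wave of genes, and others encode short-lived feedback regulators. In neurons they follow electrical activity and calcium entry, whereas in Schwann cells, macrophages and fibroblasts they follow growth factors, injury and tissue handling. Arc is a neuronal effector whose protein regulates the endocytosis of glutamate receptors at synapses and assembles into capsid-like shells. Whole ganglia mix all of these cells, and in such bulk tissue fewer cells of a type and less RNA per cell cannot be told apart.

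The total count per library ranged from 21129191 to 41250329. All 11 sensory neuron markers were present, with summed levels of 11136 to 14731 CPM, the count scaled to the library total, in Nf2 mice and 12233 to 13514 CPM in DKO mice, and Schwann cell markers summed to 3526 CPM or more in each mouse. Ptk2 was at 70.0 ± 3.60 CPM in Nf2 and 64.0 ± 10.4 CPM in DKO mice (SD, n = 6), with an edgeR adjusted p of 0.529, so whole-gene counts of mixed tissue did not separate the genotypes. The Nf2 gene, floxed in both, was at 128 ± 12.4 CPM in Nf2 and 118 ± 11.2 CPM in DKO mice (SD, n = 6, edgeR adjusted p = 0.435). Nf2 mouse 702, labelled male, had 496 CPM of Xist and 0.525 CPM of the Y-linked Ddx3y, which goes against its label. In DKO mouse 887, mitochondrial genes took 5.60% of the counts, and neutrophil and erythroid markers lay below the other DKO mice. In Nf2 mouse 649 they took 4.45%, against 1.99% to 3.15% in the other Nf2 mice, and its neutrophil and erythroid markers, at 7.75 and 36.4 CPM, were the lowest of all 12 mice.

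Promoters of these genes often carry cyclic AMP response elements (CRE), the sites at which CREB binds. RefSeq promoter sequences (GRCm38.p6) were matched for 6 of the 10 genes, Fos, Fosb, Junb, Nr4a1, Npas4 and Dusp1. The core site TGACG, read on either strand, occurred in the 250 bases before the start of 6 of these 6 genes, against 17.8% of 32851 mouse promoters. The 6 windows had a GC content of 58.4% to 74.4%, and the 32851 promoters were not matched for it. The full element TGACGTCA, which contains the core on both strands, occurred only in Dusp1 of the 6 and in 1.55% of all promoters. A CArG box, the site of serum response factor, was found in none of the 6 windows and in 1.47% of all, which says only that those letters are not in these windows. The windows of Fos (chr12:85473640-85473889, plus strand), Junb (chr8:84978749-84978998, minus strand), Nr4a1 (chr15:101266596-101266845, plus strand) and Dusp1 (chr17:26508473-26508722, minus strand) are printed because they span the range from 1 core site in Junb to 4 in Nr4a1 and show the full element. They read from 5′ to 3′ with the core sites, on either strand, in capitals.
Fos: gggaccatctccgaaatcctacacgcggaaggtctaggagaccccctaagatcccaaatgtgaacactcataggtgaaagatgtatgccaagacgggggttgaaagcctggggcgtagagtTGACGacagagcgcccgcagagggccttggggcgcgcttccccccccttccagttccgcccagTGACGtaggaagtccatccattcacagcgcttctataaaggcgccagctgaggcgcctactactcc
Junb: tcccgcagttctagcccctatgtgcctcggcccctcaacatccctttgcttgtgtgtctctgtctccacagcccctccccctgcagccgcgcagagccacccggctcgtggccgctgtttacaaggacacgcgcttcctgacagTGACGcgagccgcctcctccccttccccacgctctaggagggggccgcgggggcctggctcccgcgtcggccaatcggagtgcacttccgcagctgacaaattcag
Nr4a1: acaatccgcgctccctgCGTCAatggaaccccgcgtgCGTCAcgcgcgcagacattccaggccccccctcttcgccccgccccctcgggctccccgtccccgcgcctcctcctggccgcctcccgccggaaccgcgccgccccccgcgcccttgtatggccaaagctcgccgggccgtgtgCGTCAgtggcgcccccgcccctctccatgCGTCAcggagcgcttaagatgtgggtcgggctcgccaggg
Dusp1: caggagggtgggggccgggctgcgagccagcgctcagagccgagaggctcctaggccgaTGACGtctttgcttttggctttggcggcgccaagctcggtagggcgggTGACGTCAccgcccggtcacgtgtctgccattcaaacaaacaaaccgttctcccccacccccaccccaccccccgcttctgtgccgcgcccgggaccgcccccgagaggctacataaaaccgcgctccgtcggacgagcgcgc
In Fos the core sites began 129 and 66 bases before the start, and in Junb 106 bases before it. Nr4a1 held core sites beginning at positions -233, -213, -69 and -40, and the full element of Dusp1 began at -143. A match describes the sequence and does not show that a factor was bound in these ganglia.

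The levels of the 10 genes in the ganglia were first set side by side per kilobase of exon, the only scale on which genes of different length can be compared. Nr4a1 was highest, at 16.9 ± 1.89 CPM per kilobase over the 12 mice (SD), followed by Junb at 13.5 ± 2.41 and Dusp1 at 7.02 ± 1.56. Fos (5.02 ± 1.03), Ier2 (4.90 ± 0.667) and Egr1 (4.86 ± 1.42 CPM per kilobase) stood next to each other and did not differ beyond their spread. Arc (1.07 ± 0.543) and Egr3 (0.682 ± 0.313 CPM per kilobase) were lower. They lay within each other's spread over the 12 mice, which for Arc includes the difference between the genotypes. Fosb (0.263 ± 0.0894) and Npas4 (0.0784 ± 0.0545 CPM per kilobase) were lowest. In Nf2 mice Arc and Egr3 were at 0.624 ± 0.206 and 0.588 ± 0.198 CPM per kilobase, whereas in DKO mice they were at 1.52 ± 0.347 and 0.776 ± 0.393 (SD, n = 6). The smallest count of a gene in a library was 1 read for Npas4, 24 for Egr3, 25 for Fosb and 28 for Arc, and 138 or more for each of the other 6 genes.

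**Figure D1:**
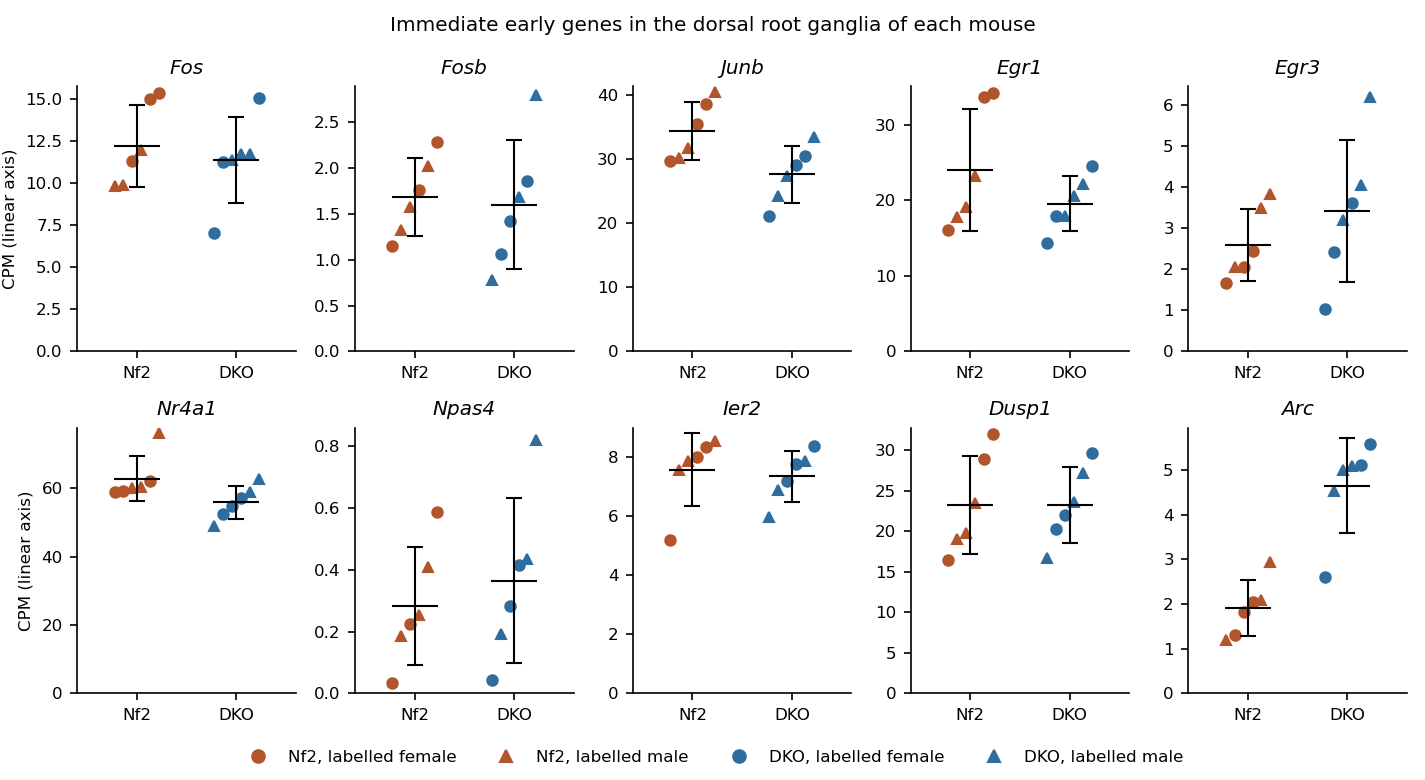
CPM of the 10 immediate early genes (linear vertical axes, 1 panel per gene) in each Nf2 and DKO mouse, with circles for mice labelled female and triangles for mice labelled male, and the mean ± SD of 6 mice in black. In Arc 5 of the 6 DKO mice lie above all Nf2 mice. In Nr4a1 5 and in Junb 4 of the 6 DKO mice lie below all Nf2 mice, and in the remaining panels the genotypes interleave.

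Arc was the gene called as different between the genotypes. The Nf2 mice held 28 to 86 reads of Arc, which came to 1.19 CPM (mouse 649), 2.10 CPM (702), 2.94 CPM (884), 1.32 CPM (918), 1.83 CPM (1048) and 2.06 CPM (1049). The DKO mice held 61 to 210 reads, or 5.12 CPM (mouse 885), 2.60 CPM (886), 5.58 CPM (887), 5.09 CPM (914), 5.00 CPM (915) and 4.53 CPM (917). In DKO, 5 mice were thus above every Nf2 mouse, and DKO mouse 886 lay below Nf2 mouse 884, so the groups overlapped by this pair. The mean rose from 1.91 ± 0.630 to 4.66 ± 1.06 CPM (SD, n = 6). On the log2 scale this was a fold change of 1.27 ± 0.23 (SE), the 95% interval ran from 0.77 to 1.76, and edgeR's quasi-likelihood test gave an adjusted p of 0.0202. On the log2(CPM + 4) scale the difference was 0.55, which is smaller because the pseudocount of 4 is of the size of the Arc level itself, with a two-sided exact permutation p of 0.00433. The direction held in all 27 alternative fits, with log2 fold changes from 1.10 to 1.43 and adjusted p from 2.23e-05 to 0.345. The call was lost without DKO mouse 885 (edgeR adjusted p = 0.0536), DKO mouse 914 (0.0511) or Nf2 mouse 918 (0.0595), and without both mice 702 and 887 (0.0593), while it held without both mice 649 and 887 (log2 fold change 1.10, edgeR adjusted p = 0.0346).

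Across all 10 genes, Arc was the only one past the threshold, and it was higher in DKO. Of 9 genes that passed the count filter, 1 was called, where 0.94% of the 18295 tested genes were called in either direction and 0.372% as higher in DKO. The call of Arc was known from earlier results of these data, so 1 of 9 cannot be read as a rate beside these shares. None of the 10 was without overlap between the genotypes, a state that 1.95% of tested genes reached. The median log2 fold change of the 9 genes was -0.10, with 2 above and 7 below 0, beside a median of 0.0047 over all tested genes. In the exact permutation test of log2(CPM + 4), Arc, Junb and Nr4a1 had an unadjusted p under 0.05, as did 15% of all tested genes. After adjustment over those genes no gene passed, since the smallest p that 6 mice against 6 allow is 0.00216 and the smallest adjusted p was 0.111.

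**Figure D2:**
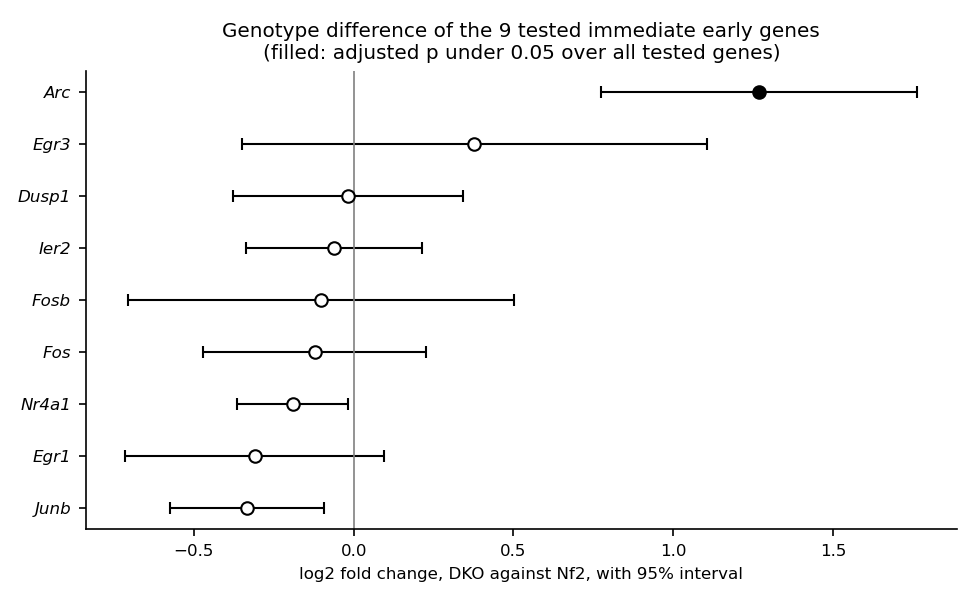
Log2 fold change of DKO against Nf2 (horizontal axis) with its 95% interval for the 9 immediate early genes tested by edgeR. The interval of Arc runs from 0.77 to 1.76 and carries the only filled point, those of Junb and Nr4a1 end below 0 without passing adjustment, and the other 6 span 0.

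Among the AP-1 members, whose FOS and JUN proteins pair to bind DNA, none passed the test. Fos ranged from 9.81 to 15.4 CPM with a median of 11.7 in Nf2 mice, and from 7.03 to 15.1 with a median of 11.5 in DKO mice. The groups covered nearly the same range, and the log2 fold change of -0.12 ± 0.16 (SE) had a 95% interval from -0.47 to 0.23 and an edgeR adjusted p of 0.781. Fosb, which encodes a partner of the JUN proteins and is also spliced to the long-lived ΔFosB, was at 1.15 to 2.28 CPM with a median of 1.67 in Nf2 mice and at 0.776 to 2.79 with a median of 1.55 in DKO mice, or -0.10 ± 0.28 (SE) as log2 fold change. Its 95% interval ran from -0.70 to 0.50. Junb, a JUN protein that pairs with FOS and often restrains JUN itself, ranged from 29.8 to 40.5 CPM with a median of 33.7 in Nf2 mice and from 21.2 to 33.6 with a median of 28.3 in DKO mice. No DKO mouse reached the Nf2 mean of 34.4 CPM, yet 2 of them lay within the Nf2 range, and the log2 fold change of -0.33 ± 0.11 (SE) had an unadjusted edgeR p of 0.0105 and an adjusted p of 0.174. Over the 27 alternatives the adjusted p of Junb ran from 0.0867 to 0.613.

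The EGR zinc-finger factors and NR4A1 gave no call either. Egr1, a factor induced by growth factors and synaptic activity alike, was at 16.1 to 34.1 CPM with a median of 21.2 in Nf2 mice and at 14.4 to 24.6 with a median of 19.2 in DKO mice. Nf2 mice 1048 and 1049, at 33.7 and 34.1 CPM, stood above the other 10 mice, and the log2 fold change was -0.31 ± 0.19 (SE, edgeR adjusted p = 0.485), or -0.19 without mouse 1049. Egr3, a related factor that follows neuronal activity and is needed for muscle spindles, ranged from 1.66 to 3.83 CPM in Nf2 mice with a median of 2.26 and from 1.02 to 6.20 in DKO mice with a median of 3.40. Its log2 fold change of 0.38 ± 0.34 had the widest interval of the 9 genes, from -0.35 to 1.11, and was 0.13 without DKO mouse 915 and 0.57 without DKO mouse 886. Nr4a1, an orphan nuclear receptor induced in neurons and in myeloid cells, was at 59.0 to 76.2 CPM with a median of 60.2 in Nf2 mice and at 49.1 to 62.7 with a median of 55.8 in DKO mice. Nr4a1 was below every Nf2 mouse in 5 DKO mice, while DKO mouse 914, at 62.7 CPM, was just below the Nf2 mean of 62.8 CPM. That mean includes Nf2 mouse 649 at 76.2 CPM, where the next Nf2 mouse was at 62.2 CPM. The log2 fold change was -0.19 ± 0.08 (SE), with an unadjusted edgeR p of 0.0341 and an adjusted p of 0.284. Without mouse 649 it was -0.12 (edgeR adjusted p = 0.412).

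Npas4, a neuron-specific factor that responds to calcium entry, could barely be counted. Its libraries held from 1 to 19 reads, or 0.0338 to 0.587 CPM in Nf2 mice and 0.0426 to 0.820 CPM in DKO mice, and it did not pass the count filter of the edgeR test. A difference was not detectable at this depth, with a two-sided exact permutation p of 0.543 on log2(CPM + 4). Ier2, a small nuclear regulator of transcription, ranged from 5.17 to 8.52 CPM with a median of 7.93 in Nf2 mice and from 5.96 to 8.38 with a median of 7.47 in DKO mice. Dusp1, a phosphatase that switches off MAP kinases and is itself induced by glucocorticoids, ranged from 16.5 to 32.0 CPM with a median of 21.6 in Nf2 mice and from 16.7 to 29.6 with a median of 22.8 in DKO mice. The genotypes interleaved in both genes, with log2 fold changes of -0.06 ± 0.13 and -0.02 ± 0.17 (SE) and 95% intervals from -0.34 to 0.21 and from -0.38 to 0.34.

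Arc and Fos were also set side by side in the same libraries. For every 100 reads of Fos there were 16.1 ± 7.11 reads of Arc in Nf2 mice, with a range of 11.6 to 30.0, and 41.1 ± 5.44 in DKO mice, with a range of 34.0 to 49.6 (SD, n = 6). The ranges did not overlap, and this ratio, chosen after the values were seen, is given without a test. DKO mouse 886 illustrates it, with the lowest Fos of all 12 mice (7.03 CPM), the lowest Arc of the DKO mice (2.60 CPM) and a ratio of 37.0. With the Fos level of each mouse as a covariate, the log2 fold change for Arc came to 1.31, at an adjusted p of 0.0226 in edgeR.

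**Figure D3:**
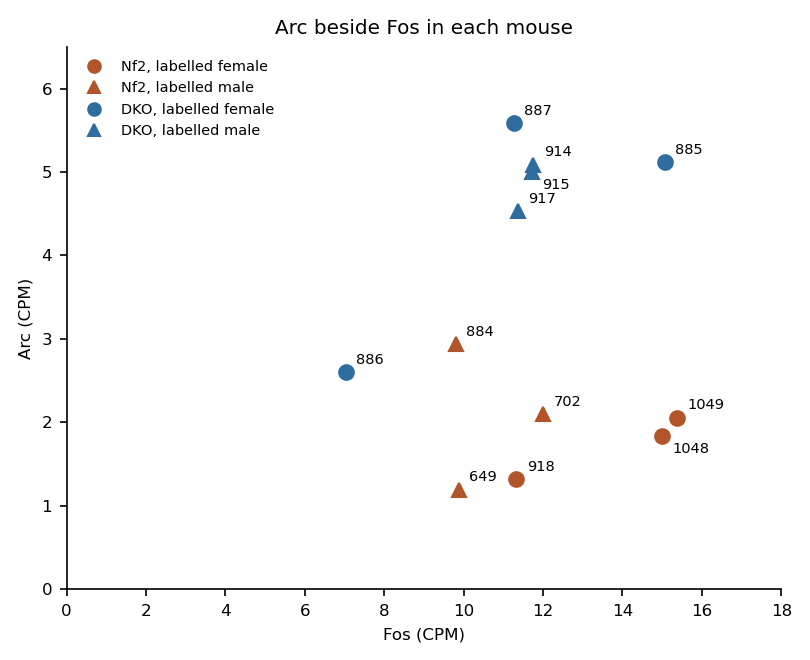
Arc against Fos, both in CPM on linear axes, with 1 point per mouse labelled by its number, coloured by genotype and shaped by labelled sex. The Nf2 mice lie between 1.19 and 2.94 CPM of Arc and 5 DKO mice between 4.53 and 5.58 over similar Fos levels, while DKO mouse 886 is low in both.

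The sexes were compared because sex is the only other factor in the labels. Arc averaged 1.74 CPM in Nf2 mice labelled female, 2.08 in those labelled male, and 4.43 and 4.88 CPM in the corresponding DKO mice. Taken alone, females gave a log2 fold change of 1.36 and males one of 1.18, and with 3 mice against 3 neither passed (edgeR adjusted p = 0.243 and 0.345). The interaction of genotype and sex was -0.18 ± 0.48 (SE) on the log2 scale for Arc, with a 95% interval from -1.23 to 0.86. In the interaction test 0 of the 9 genes passed and 0 had an unadjusted p under 0.05, by edgeR as by limma voom, where 0.0109% of tested genes were called by edgeR. By edgeR 0 of the 9 passed the test of male against female, with 1 at an unadjusted p under 0.05, where 0.0164% of tested genes passed, and by limma voom 0 passed with 0 at an unadjusted p under 0.05. Egr3 had the smallest p of that test. It averaged 2.06 CPM in female-labelled and 3.12 in male-labelled Nf2 mice, and 2.35 and 4.49 CPM in DKO mice, a male-over-female log2 difference of 0.77 ± 0.28 (SE) with an unadjusted edgeR p of 0.0178. Without mouse 702, whose label its own sex-linked genes contradict, the difference was 0.74 ± 0.31.

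Variation between mice of the same genotype was then examined. DKO mouse 886 had the lowest level of its genotype in 6 of the 10 genes, namely Fos, Junb, Egr1, Egr3, Arc and Npas4, and the highest in 1, Dusp1. Nf2 mouse 918 was lowest of its genotype in 7 genes, Fosb, Junb, Egr1, Egr3, Npas4, Ier2 and Dusp1. Nf2 mouse 1049 was highest in Fos, Fosb, Egr1 and Dusp1, and Nf2 mouse 649 in Junb, Egr3, Nr4a1 and Ier2 while being the lowest in Arc. The mitochondrial share and the low blood cell markers of mouse 649 stand beside these levels, and their part in them was not tested. The biological coefficient of variation is the spread that remains beyond counting error, and edgeR draws its estimate toward the trend of genes at the same level. It was above that trend in 3 of the 9 genes, with 40.4% for Egr3, 23.3% for Egr1 and 20.9% for Dusp1 against trends of 29.6%, 17.3% and 17.0%. For Arc it was 26.9%, against a trend of 28.9%, and for Nr4a1 11.0% against 14.3%.

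**Figure D4:**
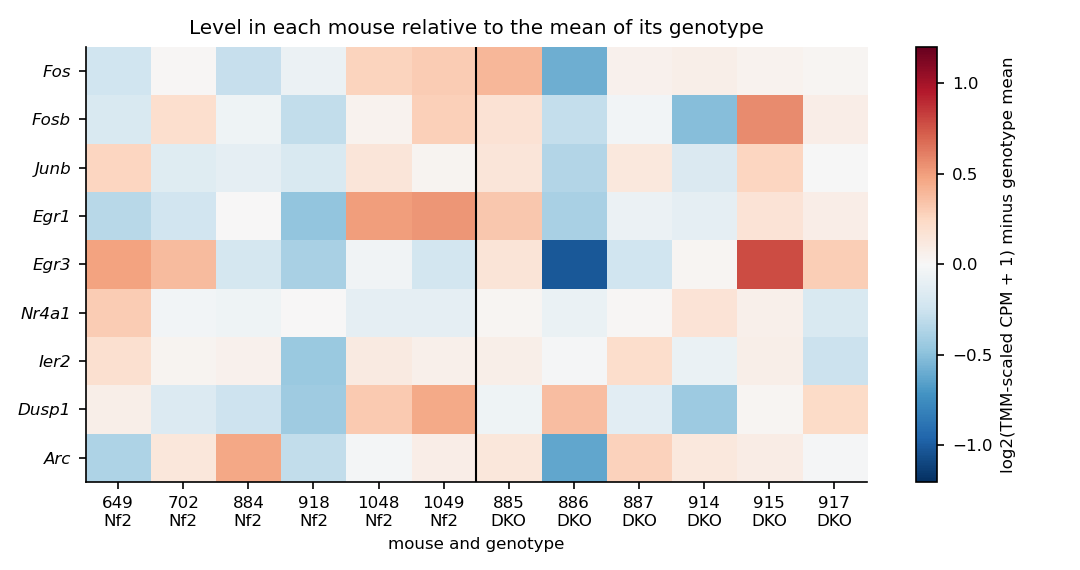
Heat map of 9 immediate early genes (rows) in 12 mice (columns), coloured by log2(TMM-scaled CPM + 1) minus the mean of the mouse's own genotype. The column of DKO mouse 886 is below 0 for 8 of 9 genes, with Egr3 at -1.02 and Arc at -0.62, and Nf2 mouse 918 is below the Nf2 mean in 8 of 9 genes.

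Mouse 886 was the highest or lowest of all 12 mice in several lists, among them the glucocorticoid response genes. Zbtb16, a glucocorticoid-induced zinc-finger gene, was at 59.9 CPM in this mouse and at 5.37 to 15.9 in the other 11, and Sgk1, a kinase induced by the same hormone, was at 101 CPM and at 22.2 to 61.2 in the others. The 6 genes of the list summed to 935 CPM in mouse 886 and to 263 to 472 CPM elsewhere. Dusp1, at 29.6 CPM, was above the other DKO mice in the same library in which Fos, Egr1 and Egr3 were lowest of all 12. In Nf2 mice 1048 and 1049 Dusp1 was at 28.9 and 32.0 CPM, with list sums of 315 and 327 CPM. The summed markers of mouse 886 were also the lowest of the 12 mice for Schwann cells (3526 CPM), satellite glia (1224 CPM) and fibroblasts (1089 CPM), and the highest for endothelial cells (98.8 CPM). The part of the glucocorticoid response genes and of these markers in its levels of immediate early genes was not tested. The part of this library in the other results can be read from the fits without it, in which the log2 fold changes were 1.39 for Arc (edgeR adjusted p = 0.0101), 0.57 for Egr3 and -0.016 for Fos.

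Whether the genes moved together from mouse to mouse was tested on levels centred on the genotype mean, in 36 pairs of the 9 tested genes over 12 mice. Of these pairs 29 had a positive Pearson r and 7 a negative one, with a median of 0.336, and 0 of 36 passed adjustment over the pairs in a permutation test with 100000 resamples, for r or for Spearman's rho, while 3 had an unadjusted p of r under 0.05. Fos and Egr1 had the highest r, 0.759 (permutation p = 0.00374, adjusted p = 0.135; rho = 0.755, permutation p = 0.00628, adjusted p = 0.113), and without mice 885 and 886, the farthest in Fos, r was 0.728. Junb and Egr3 followed at 0.695 (permutation p = 0.0105, adjusted p = 0.19; rho = 0.615, permutation p = 0.0368, adjusted p = 0.331), but without mice 886 and 649 r was 0.419. Fosb and Egr1 had an r of 0.603 (permutation p = 0.0375, adjusted p = 0.379; rho = 0.699, permutation p = 0.0136, adjusted p = 0.163), and 0.758 without mice 914 and 915. Junb and Ier2, whose genes lie 312 kb apart on chromosome 8, had an r of 0.535 (permutation p = 0.0712, adjusted p = 0.379; rho = 0.811, permutation p = 0.00219, adjusted p = 0.0788), and 0.584 without mice 649 and 886.

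No pair of Arc with another gene passed adjustment. Its highest r, with Fos, was 0.502 (permutation p = 0.0957, adjusted p = 0.379; rho = 0.273, permutation p = 0.392, adjusted p = 0.565). Within genotypes this was 0.874 among DKO mice and 0.00018 among Nf2 mice, and without mice 885 and 886 it was 0.0453, so the relation rested on those libraries. With Egr1 r was 0.488 (permutation p = 0.107, adjusted p = 0.379; rho = 0.301, permutation p = 0.345, adjusted p = 0.543), and 0.659 without mice 1048 and 1049. With Fosb it was 0.373 (permutation p = 0.232, adjusted p = 0.463; rho = 0.301, permutation p = 0.344, adjusted p = 0.543), and 0.627 without mice 914 and 915. With Ier2 it was 0.277 (permutation p = 0.382, adjusted p = 0.509; rho = 0.189, permutation p = 0.559, adjusted p = 0.694), and 0.712 without mice 649 and 886. Among the DKO mice alone, mouse 886 included, Arc had an r of 0.758 with Junb, 0.685 with Egr3 and 0.682 with Egr1. Among the Nf2 mice these were -0.429, -0.231 and 0.403. Over both genotypes, r was 0.102 with Junb without mice 649 and 886, and -0.278 with Egr3 without mice 886 and 915. Dusp1 went the other way, at -0.732 among DKO and -0.0146 among Nf2 mice. Over the 12 mice its r with Arc was -0.347 (permutation p = 0.27, adjusted p = 0.463; rho = -0.524, permutation p = 0.0846, adjusted p = 0.4). The 3 genes of 15846 whose centred level was most like that of Arc over the 12 mice were Cdh20 (r = 0.881), a cadherin, Ppfia2 (0.874), a scaffold of the presynaptic zone, and Slc8a3 (0.865), a sodium-calcium exchanger. For Fos they were Wdr66 (r = 0.909), Frem1 (0.907), an extracellular matrix protein, and 5033417F24Rik (0.900). The 3 genes like Arc were, as Arc itself, lowest of their genotype in Nf2 mouse 649 and DKO mouse 886. The 3 like Fos were, as Fos itself, lowest of the DKO mice in mouse 886. Their r without these mice was not computed. These r are descriptions of the highest values among many genes in the same libraries. None of the 6 passed the genotype test, with log2 fold changes from -0.68 to 0.40.

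Genes beyond the 10 were read from 10 lists of immediate early and related genes. Of 94 tested genes 2 passed the threshold, 1 higher and 1 lower in DKO, or 2.13% beside 0.94% of all tested genes, of which 0.568% were called lower. The 2 were Sorcs3 and Dusp6. Sorcs3, a sorting receptor that neurons induce after activity, was at 13.1 to 15.6 CPM in Nf2 and 16.8 to 20.2 CPM in DKO mice. Every DKO mouse was above every Nf2 mouse, with a log2 fold change of 0.34 ± 0.07 (SE) and an edgeR adjusted p of 0.0307, although the call held in only 2 of the 12 fits that left out a mouse, those without Nf2 mouse 649 and without DKO mouse 887, with adjusted p up to 0.0843. Dusp6, the phosphatase that inactivates ERK and is itself induced by ERK signalling, was at 57.9 to 86.1 CPM in Nf2 and 39.6 to 53.5 CPM in DKO mice. All DKO mice were below all Nf2 mice, with a log2 fold change of -0.58 ± 0.11 (SE, edgeR adjusted p = 0.0286), and the call was lost in the fits without mouse 702, 885, 886, 914, 917 or 918, where the adjusted p reached 0.075.

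The other families had no gene past the threshold. Of all tested genes 9338 had a log2 fold change above 0 and 8957 one below 0, with a median of 0.0047. The 10 further AP-1 genes had a median log2 fold change of -0.20, with 9 below 0, the smallest p being those of Jdp2, a repressor of AP-1 (-0.29 ± 0.09, edgeR adjusted p = 0.127), and Jund (-0.32 ± 0.10, 0.143). Of the EGR and NAB genes, Nab1, a corepressor that EGR proteins recruit, had -0.27 ± 0.07 (edgeR adjusted p = 0.107) and Egr2, the myelination factor of Schwann cells, 0.14 ± 0.17. The nuclear receptors Nr4a2 and Nr4a3 had 0.13 ± 0.10 and 0.41 ± 0.34. Among 24 other first-wave genes the median was -0.11 with 8 above and 16 below 0, and Nfil3 (-0.62 ± 0.15, edgeR adjusted p = 0.0733) and Bhlhe40 (-0.34 ± 0.09, 0.0942), both transcription factors tied to the circadian clock, came nearest to the threshold.

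The neuronal late response genes, which encode secreted and synaptic proteins made after activity, had a median log2 fold change of 0.12, with 9 of 12 above 0. After Sorcs3 the smallest p were those of Pcdh8, an activity-induced protocadherin (0.47 ± 0.15, edgeR adjusted p = 0.155), and Nptx1, a neuronal pentraxin (0.28 ± 0.11, 0.245), while Bdnf was at 0.17 ± 0.14. Of the 8 phosphatases other than Dusp1, Dusp2 and Dusp16 followed Dusp6, at -0.65 ± 0.27 and 0.27 ± 0.11, in opposite directions. The 15 factors that act upstream, among them Srf, Creb1 and the MEF2 genes, had a median of -0.06, with Crtc1, a coactivator of CREB, at 0.20 ± 0.05 (edgeR adjusted p = 0.1) and Elk3, a partner of serum response factor, at -0.25 ± 0.10 (0.248). Of 9 genes for partners and turnover of the Arc protein, Sh3gl3, an endophilin that works in endocytosis, was at 4.05 to 9.92 CPM in Nf2 and 10.8 to 15.1 CPM in DKO mice. It was thus without overlap, as were 1.95% of tested genes, yet missed the threshold (0.65 ± 0.19, edgeR adjusted p = 0.114), and Camk2b had 0.21 ± 0.08. Heat shock genes, which respond to tissue handling, had a median of 0.12 with Hspa8 at 0.24 ± 0.15 and Hspa1b at 0.22 ± 0.19, and the 6 glucocorticoid response genes a median of 0.41 with Zbtb16 at 0.97 ± 0.55 and Sgk1 at 0.49 ± 0.30. These values rested on mouse 886, without which the median was 0.029, Zbtb16 was at -0.07 ± 0.27 and Sgk1 at 0.14 ± 0.22.

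**Figure D5:**
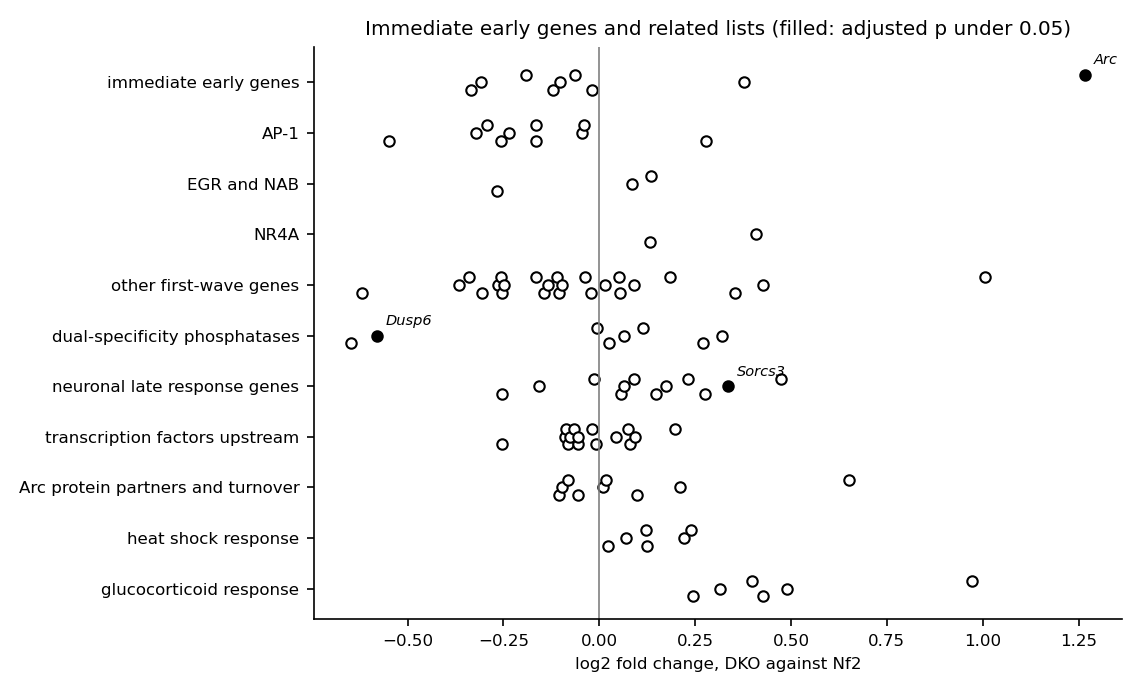
Log2 fold change of DKO against Nf2 for every tested gene of the immediate early genes and the 10 related lists, 1 circle per gene, with vertical offsets only to part the points. Arc at 1.27, Sorcs3 at 0.34 and Dusp6 at -0.58 are the filled points past an adjusted p of 0.05, and 9 of 10 further AP-1 genes lie left of 0.

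The genomic surroundings of Arc were examined next. Arc (ENSMUSG00000022602) lies on the minus strand of chromosome 15 of GRCm38, from 74669083 to 74672570, and its nearer end is 1.25 Mb from that of Ptk2 (73205102 to 73423280), the gene whose floxed allele the DKO mice carry in addition. Of 6 other tested genes whose annotated start lies within 250 kb of that of Arc, 1 passed. Of all tested genes 0.94% were called in either direction and 0.372% as higher in DKO. Jrk, a nuclear DNA-binding protein gene whose start is 37.0 kb away, was at 5.96 to 9.90 CPM in Nf2 and 10.7 to 14.5 CPM in DKO mice. The groups did not overlap, a state that 1.95% of tested genes reached. The log2 fold change was 0.60 ± 0.12 (SE, edgeR adjusted p = 0.035). Among the 12 fits that left out a mouse, the call held only without mouse 649, 702 or 887, with adjusted p up to 0.0867. Slurp2, a small secreted Ly6 protein gene 74.1 kb away with 6 to 35 reads per library, was at 1.02 ± 0.29 (edgeR adjusted p = 0.112). Adgrb1 (-0.21 ± 0.09) on the other side of Arc, and Them6 (-0.01 ± 0.07), Lypd2 (0.17 ± 0.28) and Lynx1 (-0.23 ± 0.12) did not pass. Because the floxed Ptk2 allele, its flanking sequence and the genotype come together in these mice, an effect of the deletion and one of linked sequence cannot be told apart.

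Markers of other tissues were read in the same libraries. Skeletal muscle markers, which dissection can bring along, summed to 9.45 to 797 CPM in Nf2 mice and 14.9 to 266 CPM in DKO mice, with 7 of 7 genes at a fold change below 0, a median log2 fold change of -2.27, 6 genes at an unadjusted edgeR p under 0.05 and none past the adjusted threshold. Macrophage markers summed to 213 to 321 CPM in Nf2 and 175 to 235 CPM in DKO mice, with 9 of 9 below 0 and a median of -0.44. Of these 1 gene, C1qb, passed the threshold as lower in DKO, as did 0.568% of all tested genes. Markers of central neurons, mainly of inhibitory types, summed to 4.97 to 34.7 CPM in Nf2 and 4.25 to 59.8 CPM in DKO mice, with Lhx5 too low to be tested. The highest sums were in DKO mouse 917 (59.8 CPM, with Arc at 4.53 CPM) and Nf2 mouse 1049 (34.7 CPM, with Arc at 2.06 CPM), and the lowest in DKO mouse 885 (4.25 CPM, with Arc at 5.12 CPM) and Nf2 mouse 918 (4.97 CPM, with Arc at 1.32 CPM). The log2 fold change of Arc was 1.25 (edgeR adjusted p = 0.0278) with the level of these markers as a covariate and 1.33 (0.0415) with that of the skeletal muscle markers. The list holds no marker specific to excitatory central neurons, whose part in the level of Arc was not tested. Astrocyte and oligodendrocyte markers summed to 94.4 to 166 and 13.2 to 112 CPM in Nf2 and to 73.4 to 240 and 26.0 to 155 CPM in DKO mice. Satellite glia markers summed to 1579.8 to 1712 CPM in Nf2 and 1224 to 1549 CPM in DKO mice without overlap, with 3 of 4 genes below 0, a median log2 fold change of -0.25 and none past the threshold. Their part in the level of Arc was not tested. None of the lists of astrocytes, oligodendrocytes, sensory neurons, Schwann cells, fibroblasts, endothelial cells, neutrophils or erythroid cells had a gene past the threshold.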

How the data were processed

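RNA was extracted from flash-frozen DRG of 12 mice and sequenced by a commercial provider after poly(A) selection. Per the labels, reads were trimmed with Trimmomatic 0.36, aligned with STAR 2.5.2b to GRCm38 and counted with featureCounts of Subread 1.5.2. The authors deposited raw counts, whole numbers per gene and library, without normalization. The annotation release and the strand setting are not given in the sources used here. The study analysed log2(CPM + 4). Genes were assigned by symbol, and coordinates and exon lengths were taken from GENCODE M21 (99.5% of identifiers found).

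The test of genotype was run with edgeR 4.0.16 in R 4.3.3 (filterByExpr, TMM factors, quasi-likelihood F test of genotype over all 12 mice), which tested 18295 genes, with Benjamini-Hochberg adjustment over all of them and a threshold of 0.05. CPM were computed on library totals. Alternatives were other scaling factors, DESeq2 1.42.0, limma 3.58.1 (voom with quality weights), other filters, covariates, each sex alone and each mouse left out, and 4 were added after the data had been seen. Correlations used log2(TMM-scaled CPM + 1). Procedures were tested on simulated data. The genes, lists and tests were chosen with earlier results of these data known. The genes named beyond the 10 were Ptk2 and Nf2, list members past the threshold and the 2 smallest p otherwise, neighbours of Arc within 250 kb, the 3 genes most like Arc and Fos, and up to 3 markers of a list. Bdnf, Srf, Creb1, C1qb, Xist, Ddx3y and Lhx5 were named in addition, after their values were seen. Exact and permutation tests were two-sided and run in Python 3.11.15 with numpy 2.4.6 and scipy 1.17.1.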

Additional observations from a re-analysis of the deposited data

Results flagged for a closer look

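Each gene and marker list was examined for 1 mouse standing apart from the others of its genotype, by the gap to the nearest mouse relative to the range of the 6 on the log2(CPM + 1) scale (Dixon's test at the 95% level). Of 44 groups examined 5 had such a mouse, where chance flags about 1 in 20 groups, or 2.2. Arc in DKO mouse 886 was at 2.60 CPM, below the nearest DKO mouse at 4.53 CPM. Nr4a1 in Nf2 mouse 649 was at 76.2 CPM, above the nearest at 62.2 CPM. Ier2 in Nf2 mouse 918 was at 5.17 CPM, below the nearest at 7.54 CPM. In DKO mouse 887, neutrophil markers summed to 12.5 CPM with the nearest DKO mouse at 117 CPM, and erythroid markers to 59.7 CPM with the nearest at 361 CPM.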

How the results depend on the processing

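No paired analysis was possible because the labels number each mouse once and no number recurs in the other genotype. The number of genes called between the genotypes, 172, was 845 with DESeq2, 521 with limma voom, 57 in females alone, 2 in males alone, 99 with the skeletal muscle level as a covariate, 314 without mice 649 and 887 and 81 to 217 when 1 mouse was left out. The count of immediate early genes called, 1, was 0 in females alone, in males alone and without mice 702 and 887, and 0 to 1 when 1 mouse was left out. Arc had a log2 fold change of 1.36 in females alone, 1.18 in males alone, 1.23 without mice 702 and 887, each no longer past the threshold, and 1.17 to 1.43 when 1 mouse was left out. Of the 27 alternatives, 21 kept the Arc call. The related lists, with 2 genes called, had 8 with DESeq2, 7 with limma voom, 1 without a filter, 0 in females alone, 0 in males alone and 0 to 3 when 1 mouse was left out. Correlated pairs past adjustment numbered 1 when levels were centred on genotype and sex, and 0 to 2 when 1 mouse was left out. Direction turned for fold changes near 0 that passed no test, in males alone for Fos (0.091), Fosb (0.027) and Dusp1 (0.065), in females alone for Ier2 (0.12), without mouse 914 for Fosb (0.044) and Dusp1 (0.053), and for Dusp1 without mouse 887 (0.0014), 1048 (0.041) or 1049 (0.087) or without both 649 and 887 (0.0085). With 1 mouse left out, Fosb ranged from -0.33 to 0.044, Dusp1 from -0.10 to 0.087, Egr1 from -0.40 to -0.19, Egr3 from 0.13 to 0.57, Fos from -0.22 to -0.016 and Ier2 from -0.15 to -0.0081. Junb ranged from -0.39 to -0.27 and Nr4a1 from -0.23 to -0.12 in the same fits. The cause of these changes was not tested, beyond the smaller number of mice in the subsets. The interaction, sex and exact permutation counts of immediate early genes stayed at 0 in every alternative run for them. Depth limits Npas4 most, with 1 to 19 reads per library.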
